A study of Homo sapiens with 4 samples.

Results

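The genes described here are 36 genes of sterol and fatty acid synthesis, measured in HepG2, an established line of human liver tumour cells, after inhibition of miR-191. They were chosen by name from textbook pathways, with earlier results of these data known. The set holds 19 enzymes of the sterol branch, 11 genes of the fatty acid branch and 6 genes that sense or carry sterols. Each gene was represented by its brightest row among rows that carry its symbol alone. Of the 36, 32 were tested among 14147 genes in all. ME1 was left out as dim, with values between 2.73 and 2.92 against a limit of 3.41, and FDFT1, HSD17B7 and ACSL3 had no row under their symbol alone and were not analysed here. The groups were HepG2 cultures that received, by transfection with the lipid reagent Oligofectamine, either anti-miR-191, an oligonucleotide that blocks miR-191, or the control anti-miR-NC. All cultures grew in a serum-containing medium. Each group had 2 arrays, 1 from each of 2 independent experiments, per the series text and the numbered titles. The sources used here do not state the dose, the time after transfection or whether cultures were separate within an experiment. The cells are of 1 line, so nothing here speaks to other liver cells.

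Values are RMA intensities on the log2 scale, a relative brightness with no counting depth. A change is anti-miR-191 minus control on that scale, given as the mean of the 2 experiments ± SE. The SE is limma's, drawn in large part from the variance of all genes, and is not the spread between a gene's own 2 changes. A gene is said to have fallen or risen when limma's paired fit (the experiment as a block) gave an adjusted p under 0.05 over all 14147 genes. The 4 array medians fell within 4.37 to 4.43, and values spread more widely on the anti-miR-191 arrays (interquartile ranges 3.43 and 3.38) than on controls (3.24 and 3.18). Liver markers read between 4.72 (FGB) and 11.6 (APOA1) over the 4 arrays, and 12 tested markers of other cell types read between 3.31 (COL6A3) and 9.65 (LYZ), so they set no single background level. In bulk samples, fewer cells and less RNA per cell cannot be told apart.

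Cells make cholesterol from acetyl-CoA through the mevalonate pathway, which ends in farnesyl diphosphate, and then through squalene, lanosterol and a chain of sterol intermediates in the endoplasmic reticulum. Fatty acids are made from the same acetyl-CoA and are then elongated and desaturated. The transcription factors SREBP-2 and SREBP-1, made from SREBF2 and SREBF1, drive both branches. When sterols are plentiful, INSIG proteins hold SCAP and its SREBP cargo in the endoplasmic reticulum, and the target genes are transcribed less. Hepatocytes carry much of the body's sterol and fatty acid synthesis.

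The inhibited microRNA is shown first, since it defines the treatment. RefSeq gives 2 mature forms of miR-191 at its locus on chromosome 3, minus strand (GRCh38.p14, chr3:49020672-49020694 and chr3:49020631-49020652), and the labels do not say which form the inhibitor binds. Capitals mark the seed, bases 2 to 8.
hsa-miR-191-5p: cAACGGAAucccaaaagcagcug
hsa-miR-191-3p: gCUGCGCUuggauuucgucccc

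Promoters of 4 members follow, each with 250 bases before and 50 after the start site, from RefSeq (GRCh38.p14), written along the gene. EBP and FADS2 had the largest falls of the sterol and the fatty acid branch, NSDHL showed almost no mean change, and SREBF2 encodes the regulator itself. Capitals mark CCAAT boxes (CCAAT), which bind the factor NF-Y, GC boxes (GGGCGG), which bind SP1, and an SRE-like motif (TCACNCCAC), the kind of site that SREBPs bind. All were searched on both strands, and neighbouring motifs can overlap. The windows are chrX:48521558-48521857 on the plus strand, chr11:61815953-61816252 on the plus strand, chrX:152830813-152831112 on the plus strand and chr22:41832855-41833154 on the plus strand, in the order of the lines.
EBP: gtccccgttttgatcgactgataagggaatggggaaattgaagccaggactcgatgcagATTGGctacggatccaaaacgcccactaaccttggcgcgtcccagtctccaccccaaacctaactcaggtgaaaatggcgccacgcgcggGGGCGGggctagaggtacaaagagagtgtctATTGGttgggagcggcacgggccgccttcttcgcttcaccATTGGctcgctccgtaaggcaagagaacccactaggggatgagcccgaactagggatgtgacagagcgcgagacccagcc
FADS2: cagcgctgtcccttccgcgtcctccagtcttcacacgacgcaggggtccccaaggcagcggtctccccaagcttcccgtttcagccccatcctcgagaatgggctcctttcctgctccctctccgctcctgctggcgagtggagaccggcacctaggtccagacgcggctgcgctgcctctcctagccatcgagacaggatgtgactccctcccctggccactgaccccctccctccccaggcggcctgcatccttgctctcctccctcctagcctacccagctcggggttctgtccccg
NSDHL: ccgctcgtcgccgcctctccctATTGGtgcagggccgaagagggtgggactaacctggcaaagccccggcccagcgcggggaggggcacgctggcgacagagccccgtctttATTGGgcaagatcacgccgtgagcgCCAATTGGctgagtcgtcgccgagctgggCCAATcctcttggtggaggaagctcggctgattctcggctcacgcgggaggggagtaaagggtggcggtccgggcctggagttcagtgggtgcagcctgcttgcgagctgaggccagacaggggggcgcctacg
SREBF2: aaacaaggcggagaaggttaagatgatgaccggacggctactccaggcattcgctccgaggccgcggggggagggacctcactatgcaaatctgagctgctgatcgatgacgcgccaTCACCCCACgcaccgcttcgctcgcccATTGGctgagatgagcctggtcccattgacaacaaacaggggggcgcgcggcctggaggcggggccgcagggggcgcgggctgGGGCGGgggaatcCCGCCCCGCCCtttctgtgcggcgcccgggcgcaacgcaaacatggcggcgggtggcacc

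The EBP window held 3 CCAAT boxes and 1 GC box, the NSDHL window 5 CCAAT boxes, and the FADS2 window neither. The SREBF2 window held 1 CCAAT box, 3 GC boxes and the SRE-like motif, at position -133 from the start site. Promoters were at hand for 32 of the 36 genes, of which 19 (59.4%) held a CCAAT box, against 35.4% of the 11052 promoters of tested genes. In the sterol branch 12 of 16 windows held a CCAAT box (75.0%), and in the fatty acid branch 4 of 10 (40.0%). The SRE-like motif was found in 1 of the 32 windows (3.12%) and in 1.03% of promoters of tested genes. A shorter form of it, CACNCCAC, was found in 5 of the 32 windows (15.6%) and in 6.0% of promoters of tested genes. A GC box was found in 29 of 32 windows (90.6%) and in 66.7% of promoters of tested genes, whose median GC content was 65.0%, against 67.8% for the members. A match is a run of letters and not a bound site.

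After anti-miR-191, 7 of the 32 tested genes fell and 0 rose in limma's paired fit (at an unadjusted p under 0.05, 11 lower and 0 higher). Over all tested genes 3.77% fell and 10.1% rose. Of the 7, 6 belong to the sterol branch (17 tested) and 1 to the fatty acid branch (9 tested). With the experiment dropped from the model, the unpaired fit called 0 of the 32 genes (7 lower and 0 higher at an unadjusted p under 0.05), while it called 3.91% of all genes, 0.714% lower and 3.20% higher. Of the 32 genes, 17 were lower in both experiments (33.0% of all genes), 2 were higher in both (36.5%) and 13 had opposite signs (30.4%). The p-values rest on 1 residual degree of freedom in the paired fit, moderated across genes. The same 7 genes kept their call under each of the 7 other settings of filter, scaling, row choice and moderation (adjusted p between 0.0029 and 0.047). None kept it in the unpaired fit, with all arrays (adjusted p between 0.057 and 0.305) or with any 1 array left out (between 0.061 and 0.845). With 1 array left out all 7 stayed lower, but 4 changes moved by over 1.5 times. MVD ran from -1.01 (without the control array of experiment 2) to -0.24 (without that of experiment 1), and FDPS from -0.92 to -0.27 without the same arrays. DHCR7 ran from -1.01 (experiment 1's anti-miR-191 array left out) to -0.40 (that of experiment 2 left out), and FADS2 from -1.39 to -0.57 in the same fits.

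**Figure D1:**
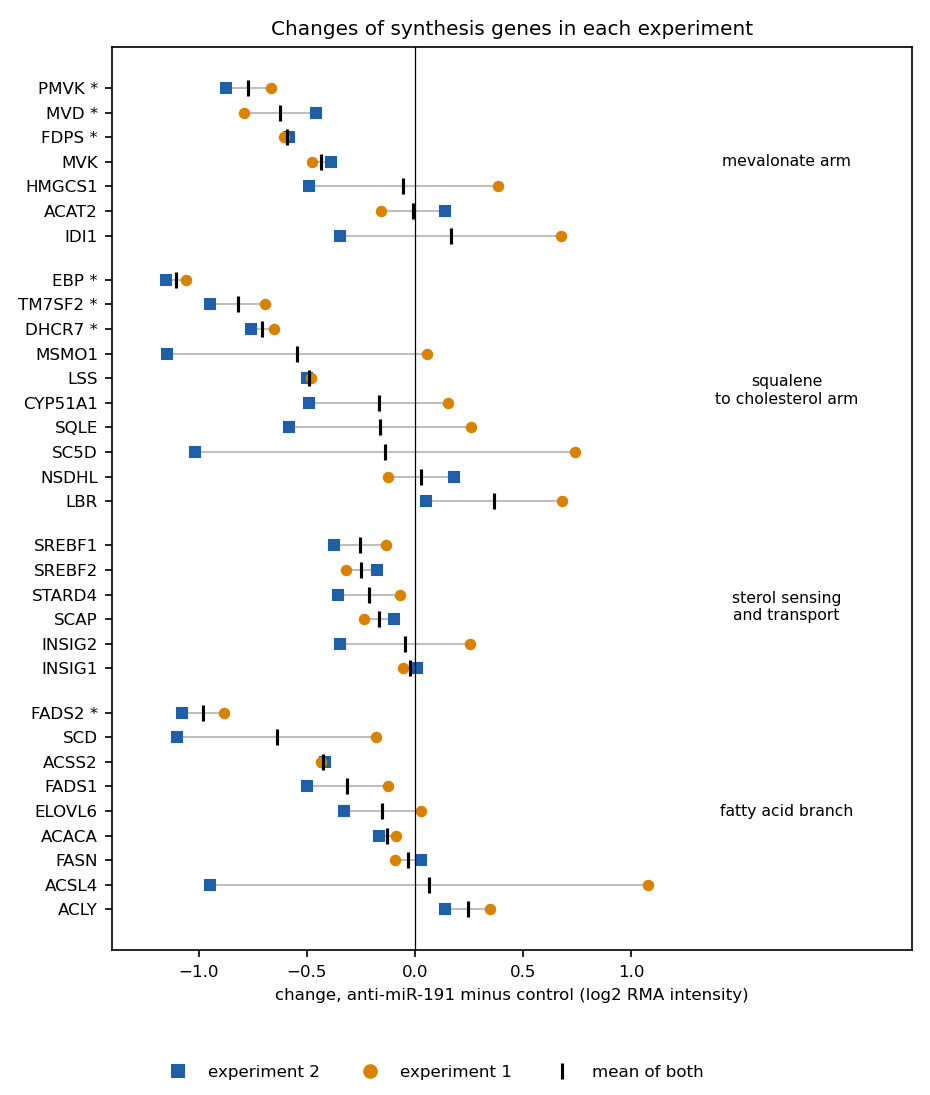
Change of each tested gene in experiment 2 (squares) and experiment 1 (circles), with the mean of both as a black bar, on the log2 scale of RMA intensity; an asterisk marks the 7 genes that fell in limma's paired fit. The fallen genes have both experiments on the lower side and close together, whereas genes such as SC5D, MSMO1 and ACSL4 have the 2 experiments far apart.

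In the mevalonate arm, PMVK, MVD and FDPS fell. PMVK, the kinase that adds the second phosphate to mevalonate, read 6.10 and 6.37 in anti-miR-191 cultures of experiments 2 and 1, against 6.98 and 7.04 in controls. Both anti-miR-191 arrays lay below both controls, and PMVK fell by 0.77 ± 0.15 (adjusted p = 0.016; unpaired 0.057). MVD, the decarboxylase that makes isopentenyl diphosphate, read 7.98 and 8.42 in anti-miR-191 cultures of experiments 2 and 1, against 8.44 and 9.21 in controls. It fell by 0.62 ± 0.16 (adjusted p = 0.037; unpaired 0.277), with the anti-miR-191 array of experiment 1 just under the control of experiment 2. FDPS, which makes farnesyl diphosphate, read 7.94 and 8.56 in anti-miR-191 cultures of experiments 2 and 1, against 8.52 and 9.16 in controls. Within each experiment the anti-miR-191 array was lower by almost the same amount, but the groups overlapped because experiment 1 read higher in both. FDPS fell by 0.59 ± 0.14 (adjusted p = 0.033; unpaired 0.305).

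The other 4 mevalonate genes did not pass. MVK, the kinase acting before PMVK, read 7.45 and 7.45 in anti-miR-191 cultures, against 7.85 and 7.93 in controls of experiments 2 and 1, a change of -0.43 ± 0.14 (adjusted p = 0.092). Its groups did not overlap. The first enzyme of the arm, the thiolase ACAT2, had a mean change of -0.01 ± 0.15. HMGCS1, the synthase that follows it and a classical SREBP-2 target, stood at -0.49 in experiment 2 but at 0.38 in experiment 1. The isomerase IDI1 stood at -0.34 in experiment 2 but at 0.68 in experiment 1. The mevalonate genes that fell act between phosphomevalonate and farnesyl diphosphate. IDI1, which also acts there, and HMGCS1 differed in sign between the experiments. MVK, which acts just before, was lower in both experiments but did not pass, so that range depends on the threshold.

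From squalene to cholesterol, EBP, TM7SF2 and DHCR7 fell. EBP, the isomerase that moves the double bond in the sterol ring, read 8.80 and 9.39 in anti-miR-191 cultures of experiments 2 and 1, against 9.95 and 10.45 in controls. The groups did not overlap, and EBP was 2.15-fold lower after anti-miR-191 (-1.10 ± 0.14; adjusted p = 0.0049; unpaired 0.073), the largest fall among the members. TM7SF2, a sterol reductase that acts after the demethylation of lanosterol, read 7.17 and 7.67 in anti-miR-191 cultures, against 8.12 and 8.37 in controls of experiments 2 and 1. It fell by 0.82 ± 0.15 (adjusted p = 0.014; unpaired 0.089), again with no overlap. DHCR7, which catalyses the last reduction to cholesterol, read 8.74 and 9.34 in anti-miR-191 cultures, against 9.50 and 10.00 in controls of experiments 2 and 1. Both anti-miR-191 arrays were below both controls, and DHCR7 fell by 0.71 ± 0.14 (adjusted p = 0.019; unpaired 0.193).

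LSS, which closes the rings to give lanosterol, was the tested member with the smallest p above the threshold. It read 7.21 and 7.71 in anti-miR-191 cultures of experiments 2 and 1, against 7.71 and 8.20 in controls. The changes of -0.50 in experiment 2 and -0.48 in experiment 1 were nearly equal (mean -0.49 ± 0.14; adjusted p = 0.063), and LSS passed after quantile normalization (adjusted p = 0.048). LBR, a nuclear envelope protein with the same reductase activity as TM7SF2, had a mean change of 0.36 ± 0.18 (adjusted p = 0.249). It stood at 0.05 in experiment 2 but at 0.68 in experiment 1, and the test of TM7SF2 against LBR itself was not made. The dehydrogenase NSDHL had a mean change of 0.03 ± 0.15, with a sign that turned under quantile normalization (-0.063) and cyclic loess (-0.011).

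The other members of this arm had opposite signs in the experiments. SQLE, the epoxidase and a rate-limiting step, stood at -0.58 in experiment 2 but at 0.26 in experiment 1. The lanosterol demethylase CYP51A1 stood at -0.49 in experiment 2 but at 0.15 in experiment 1, and its second, dimmer row gave -0.77 and 0.45. MSMO1, the oxidase that acts on the methyl groups of the ring, stood at -1.15 in experiment 2 but at 0.06 in experiment 1. SC5D, the desaturase acting between EBP and DHCR7, stood at -1.02 in experiment 2 but at 0.74 in experiment 1, with 3 of its 4 readings (4.63 to 5.37) not above those of KRT14 (up to 5.49). None of these 4 passed (adjusted p between 0.224 and 0.844).

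**Figure D2:**
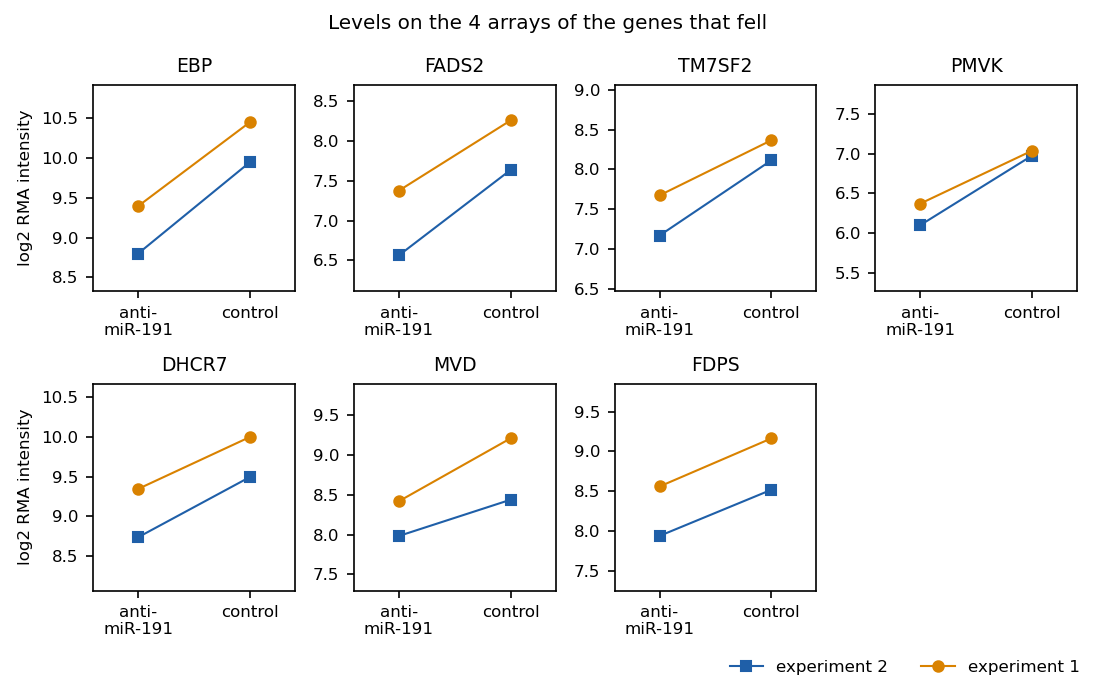
Level of each of the 7 fallen genes on the 4 arrays, with anti-miR-191 left and control right in every panel and a line for each experiment; the vertical axes are log2 RMA intensity, each spanning the same number of log2 units. Every line runs upwards to the control, nearly in parallel for EBP, FDPS and DHCR7, and the experiment 1 line lies above the experiment 2 line in all panels.

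The sterol sensing and transport genes showed small changes, and 0 of 6 passed (limma's paired fit; 0 at an unadjusted p under 0.05). SREBF2 read 7.63 and 7.45 in anti-miR-191 cultures of experiments 2 and 1, against 7.81 and 7.77 in controls, a change of -0.25 ± 0.15 (adjusted p = 0.322). SREBF1 read 6.82 and 7.34 in anti-miR-191 cultures of experiments 2 and 1, against 7.20 and 7.47 in controls, a change of -0.25 ± 0.15 (adjusted p = 0.325). Both had lower means after anti-miR-191, by less than the test could separate from the spread. The escort protein gene SCAP had a mean change of -0.17 ± 0.15 and the sterol carrier STARD4 of -0.21 ± 0.15, at readings (5.17 to 5.52) close to those of KRT14. INSIG1, itself a strong SREBP target, had a mean change of -0.02 ± 0.14, with readings between 4.22 and 4.56 on the 4 arrays. These lie below those of the keratinocyte marker KRT14 (5.29 to 5.49) but above those of COL6A3 (3.31 to 3.53). As such markers set no single level, INSIG1 is not shown to be above background, and its sign turned under cyclic loess (0.0026). INSIG2 stood at -0.35 in experiment 2 but at 0.25 in experiment 1.

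In the fatty acid branch FADS2 fell. FADS2, the desaturase that starts the synthesis of long polyunsaturated fatty acids, read 6.56 and 7.38 in anti-miR-191 cultures of experiments 2 and 1, against 7.64 and 8.26 in controls. Both anti-miR-191 arrays lay below both controls. FADS2 was 1.97-fold lower after anti-miR-191 (-0.98 ± 0.15; adjusted p = 0.0072; unpaired 0.149). Its neighbour on chromosome 11, the desaturase FADS1, read 7.24 and 7.66 in anti-miR-191 cultures, against 7.74 and 7.79 in controls of experiments 2 and 1, a change of -0.31 ± 0.16 (adjusted p = 0.252).

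SCD, which introduces the first double bond into saturated fatty acids, read 8.52 and 9.18 in anti-miR-191 cultures of experiments 2 and 1, against 9.62 and 9.36 in controls. The groups did not overlap, yet the change was -1.10 in experiment 2 and -0.18 in experiment 1, and SCD did not pass (-0.64 ± 0.22; adjusted p = 0.101). ACSS2, which makes acetyl-CoA from acetate, had close changes of -0.42 and -0.43 (mean -0.43 ± 0.14; adjusted p = 0.096). The enzymes at the core of the branch moved little: FASN, the fatty acid synthase, had a mean change of -0.03 ± 0.15, and ACACA, the carboxylase that makes malonyl-CoA, of -0.13 ± 0.14. ACLY, which makes acetyl-CoA from citrate, was the sole tested member with both anti-miR-191 arrays above both controls, as were 29.4% of all genes. It read 9.36 and 9.35 in anti-miR-191 cultures, against 9.22 and 9.01 in controls of experiments 2 and 1 (0.24 ± 0.15; adjusted p = 0.342). The elongase ELOVL6 read between 3.47 and 3.92 and is not shown to be above background. ACSL4, which activates arachidonic acid, had the widest split between experiments, with changes of -0.95 in experiment 2 and 1.08 in experiment 1, and its mean change of 0.06 turned to -0.040 after quantile normalization.

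Set side by side, the sterol branch had a median change of -0.43 over 17 genes and the fatty acid branch of -0.15 over 9 genes, against 0.01 over all tested genes. The 9 liver markers, which belong to neither branch, had a median of -0.43 as well, with all 9 mean changes below 0, and their part in the members' values was not tested. The 6 sensing and transport genes had a median of -0.19. A mean change below 0 was found for 14 of 17 sterol genes and 7 of 9 fatty acid genes, against 48.6% of all genes. Both anti-miR-191 arrays were below both controls for 6 sterol genes and 4 fatty acid genes, 12 of the 32 members in all, against 23.8% of all genes. Leaving out ACLY (0.24) and ACSS2 (-0.43), which feed both branches, could not move the fatty acid median of -0.15, as they lie on opposite sides of it. The middle gene is ELOVL6, which is not shown to be above background. With rows below the median level left out, ELOVL6 was not tested and the fatty acid median was -0.22. The genes were chosen with results of these data known, so the difference between the branches was not tested. Within experiment 2 the medians were -0.50 for the sterol and -0.42 for the fatty acid branch. Within experiment 1 they were -0.16 for the sterol and -0.09 for the fatty acid branch, so the branches lay closer in each experiment than over the mean of both. Across the 32 genes, mean change and the genomic span of the gene had Spearman rho = 0.37, as a description of genes that share the same 4 arrays. Over 14131 tested genes with a known span rho was 0.23. The fallen genes span 4.36 kb (TM7SF2), 6.91 kb (EBP), 11.2 kb (MVD), 11.8 kb (FDPS), 17.9 kb (PMVK), 21.8 kb (DHCR7) and 51.2 kb (FADS2), and FADS2 had the second largest fall.

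The experiments differed for part of the pathway. The squalene to cholesterol arm had median changes of -0.67 (experiment 2) and -0.04 (experiment 1), and 9 of its 10 genes had the lower change in experiment 2, as had 48.7% of all genes. In the mevalonate arm the medians were -0.46 and -0.48, with 3 of 7 genes lower in experiment 2. With 1 array per group in each experiment no residual is left for a test of this difference. All 9 tested markers of liver cells likewise had the lower change in experiment 2, with medians of -0.88 in experiment 2 and 0.01 in experiment 1. Of those markers TTR fell (-1.04 ± 0.14; adjusted p = 0.0057), while ALB stood at -0.93 in experiment 2 but at 0.48 in experiment 1.

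Of the 32 members, 9 were lower in experiment 2 and higher in experiment 1, against 15.9% of all genes: ACSL4, SC5D, MSMO1, IDI1, HMGCS1, SQLE, CYP51A1, INSIG2 and ELOVL6. HMGCS1 read 6.47 and 6.58 in anti-miR-191 cultures of experiments 2 and 1, against 6.97 and 6.19 in controls. MSMO1 read 5.72 and 5.76 in anti-miR-191 cultures, against 6.87 and 5.70 in controls of experiments 2 and 1. In both genes the anti-miR-191 arrays agreed closely and the controls stood apart. The same held for IDI1, with 7.10 and 7.22 in anti-miR-191 cultures, against 7.44 and 6.55 in controls of experiments 2 and 1. SC5D differed, with 4.67 and 5.37 in anti-miR-191 cultures, against 5.69 and 4.63 in controls of experiments 2 and 1, so that both groups stood apart and in opposite order. ACSL4 was alike, with 5.61 and 6.59 in anti-miR-191 cultures, against 6.56 and 5.52 in controls of experiments 2 and 1. In SQLE the groups differed between experiments by about as much, -0.44 among anti-miR-191 arrays and 0.41 among controls (experiment 2 minus experiment 1). In ELOVL6 the anti-miR-191 arrays differed more (-0.45, against -0.10 among controls), so the genes of the set did not share 1 pattern. Over the 9 genes the median difference of experiment 2 minus experiment 1 was -0.22 among anti-miR-191 arrays and 0.77 among controls. Over all genes with the same pattern of signs it was -0.16 among anti-miR-191 arrays and 0.25 among controls. For the 17 members lower in both experiments it was -0.44 among anti-miR-191 arrays and -0.27 among controls. For all genes lower in both experiments it was -0.070 among anti-miR-191 arrays and -0.055 among controls. These sets were formed from the signs themselves, so the medians are descriptions.

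**Figure D3:**
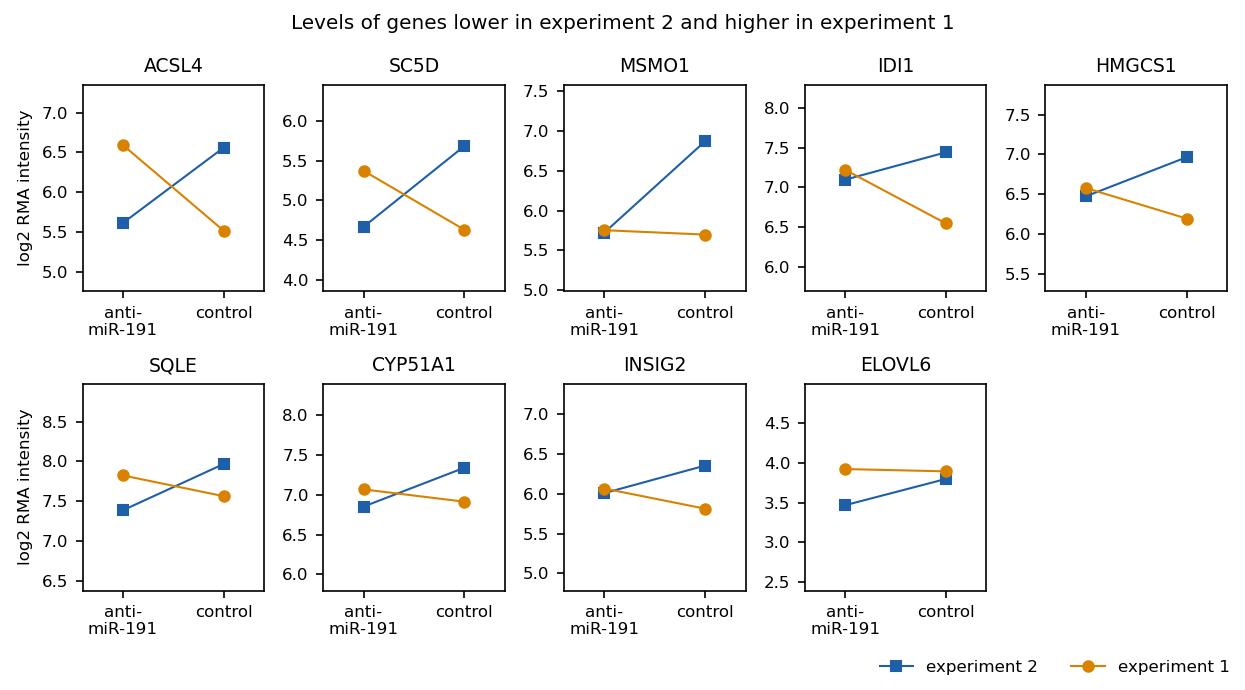
Levels of the 9 genes with a lower value after anti-miR-191 in experiment 2 (squares) and a higher one in experiment 1 (circles), anti-miR-191 left and control right; vertical axes are log2 RMA intensity, each spanning the same number of log2 units. In MSMO1, IDI1, HMGCS1 and INSIG2 the anti-miR-191 points nearly coincide and the control points lie apart, while in ACSL4 and SC5D both pairs of points lie apart, in opposite order.

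Lists of other genes that use or handle sterols and fatty acids were set beside the members, and the difference between them was not tested. Of 85 such genes tested, 13 rose and 3 fell (10.1% and 3.77% of all genes), with 6 higher and 1 lower in the unpaired fit. Each gene named below as risen or fallen lost its call in at least 3 of the 4 fits that leave out 1 array and the block. In those fits the value moved by over 1.5 times for 4 of these genes. GPAM lay between 0.30 (without the control array of experiment 1) and 1.70 (without that of experiment 2). CYP27A1 was at -0.23, PLIN2 at 0.62 and RNF139 at 0.45 at their smallest, CYP27A1 and RNF139 when experiment 2's anti-miR-191 array was left out and PLIN2 when that of experiment 1 was. Among 11 glycerolipid genes 3 rose and 0 fell in limma's paired fit, and 5 had a mean change below 0. GPAT3, an acyltransferase that starts glycerolipid synthesis, read 8.06 and 8.08 in anti-miR-191 cultures, against 6.44 and 6.46 in controls of experiments 2 and 1, and rose 3.07-fold (1.62 ± 0.14; adjusted p = 0.0017; unpaired 0.018). GPAM, its mitochondrial counterpart, rose 2.00-fold (adjusted p = 0.023; unpaired 0.263; 0.062 after quantile normalization) and the lipid droplet protein gene PLIN2 rose 1.98-fold (adjusted p = 0.0078; unpaired 0.115). The triglyceride-forming acyltransferases DGAT1 and DGAT2 were lower in both experiments without passing, with mean changes of -0.54 ± 0.15 for DGAT1 (adjusted p = 0.051) and -0.45 ± 0.14 for DGAT2 (adjusted p = 0.081). AGPAT2, which makes phosphatidic acid, had -0.53 ± 0.15 (adjusted p = 0.055), so the list did not run one way. Of 13 further genes of fatty acid elongation, desaturation and activation, 2 rose and 0 fell. They were the acyl-CoA synthetases ACSL1, which rose by 1.14 ± 0.16 on the log2 scale (adjusted p = 0.0062; unpaired 0.038), and ACSL5, which rose 2.05-fold (adjusted p = 0.012; unpaired 0.056).

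Of 15 genes of cholesterol efflux, storage and trafficking, 3 rose and 2 fell, against 10.1% and 3.77% of all genes. MYLIP, a ubiquitin ligase induced by the sterol receptor LXR, read 6.74 and 6.32 in anti-miR-191 cultures, against 4.61 and 4.95 in controls of experiments 2 and 1, and rose by 1.75 ± 0.20 (adjusted p = 0.0035; unpaired 0.023). The sterol exporters ABCG5 and ABCA1, also known as LXR targets, rose by 0.90 ± 0.15 for ABCG5 (adjusted p = 0.010; unpaired 0.037) and by 0.84 ± 0.14 for ABCA1 (adjusted p = 0.011; unpaired 0.082). Both control readings of MYLIP, ABCG5 and ACSL1 lay below the lowest of KRT14 (5.29), though above those of COL6A3 (up to 3.53). These 3 genes are therefore not shown to be above background in controls, and no fold is given for them. Other such markers read higher than KRT14, DES between 5.70 and 6.06 and LYZ from 9.23. A reading above KRT14 thus does not show a gene to be above background. The ABCA1 controls (5.95 and 5.56 in experiments 2 and 1) did not exceed the DES range. NPC2, which moves cholesterol out of lysosomes, fell by 0.80 ± 0.15 (adjusted p = 0.013; unpaired 0.04996). CYP27A1, a bile acid synthesis enzyme named after its value was seen, fell by 0.56 ± 0.15 (adjusted p = 0.044; unpaired 0.304) and lost its call after quantile normalization (0.057). ABCG8, the partner of ABCG5 in its exporter and also an LXR target, had a mean change of 0.25 ± 0.15 with a lowest reading of 5.80 and did not pass (adjusted p = 0.354). ABCG1, of the same list and also an LXR target, had a mean change of 0.03 ± 0.15 (adjusted p = 0.922), at readings between 3.94 and 4.12. Among the members, SREBF1, SCD and FASN are also known as LXR targets. Their mean changes were -0.25 for SREBF1, -0.64 for SCD and -0.03 for FASN, and none passed. The part of LXR in these values was not tested.

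Of 19 lipogenic transcription factors and kinases 3 rose and 0 fell. For this and the next lists, the shares over all genes are 10.1% risen and 3.77% fallen. PRKAA2 and PRKAB2, subunits of the AMP-activated kinase that phosphorylates ACACA, rose by 1.61 ± 0.15 for PRKAA2 (adjusted p = 0.0017; unpaired 0.028) and by 1.37 ± 0.15 for PRKAB2 (adjusted p = 0.0032; unpaired 0.028). On the control array of experiment 1 PRKAA2 read 5.05, under every KRT14 reading, and PRKAB2 read 5.48, within the KRT14 range of 5.29 to 5.49, as did SIRT1 (5.31) and RNF139 (5.34). Folds of SIRT1 and RNF139 thus rest in part on readings not shown to be above background. The deacetylase SIRT1 rose 1.62-fold (adjusted p = 0.022; unpaired 0.063; 0.052 after quantile normalization). PRKAA1, the other catalytic subunit, had a mean change of 0.21 ± 0.18 at readings between 4.80 and 5.31. Of 9 genes of citrate and NADPH supply 0 rose and 1 fell: the mitochondrial citrate carrier SLC25A1, by 0.67 ± 0.15 (adjusted p = 0.026; unpaired 0.067). Of 9 genes of SREBP processing and sterol-regulated degradation 2 rose and 0 fell. RNF139, an endoplasmic reticulum ubiquitin ligase, rose 1.66-fold (adjusted p = 0.018; unpaired 0.156), and SEC24C, a coat protein of vesicles leaving that compartment, rose 1.45-fold (adjusted p = 0.048; unpaired 0.094) but lost its call under each of the 3 scalings (adjusted p between 0.056 and 0.097). None of 9 genes of isoprenoid use passed, the largest change being 0.46 ± 0.15 for PDSS1 (adjusted p = 0.079).

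**Figure D4:**
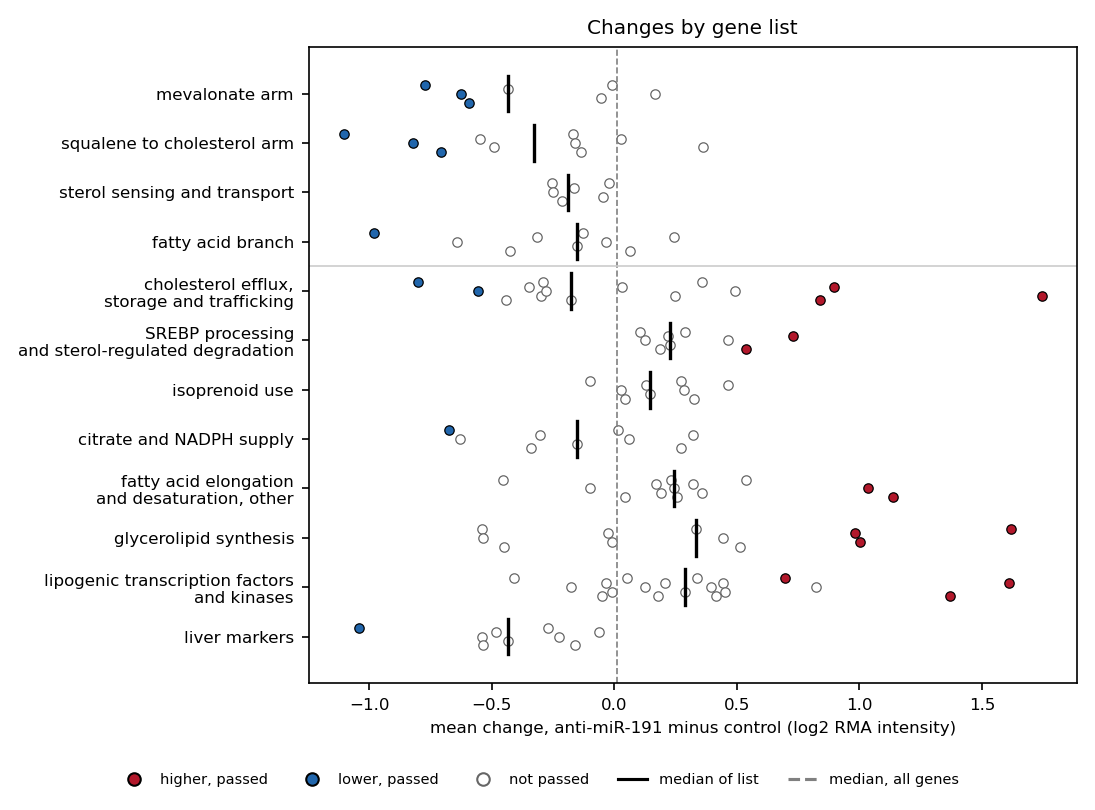
Mean change of each tested gene by list, on the log2 scale of RMA intensity, the 4 groups of members above the grey line and other lists below it; filled points passed limma's paired fit, black bars are list medians and the dashed line is the median of all genes, 0.01. Filled points among the members all lie on the lower side, with medians from -0.43 to -0.15, while those of the glycerolipid and transcription factor lists all lie on the higher side. Over all genes 10.1% rose and 3.77% fell.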

How the data were processed

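The authors deposited 1 log2 intensity per probe set and array, and the submitters' processing notes name RMA and Affymetrix Expression Console. RMA subtracts background, equalizes the arrays and combines probes, which can compress low values. Versions and the set of arrays processed jointly are not stated in the sources used here; log base 2 is RMA's default. Precision is limited by the 4 arrays.

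Of 33297 rows, 19460 had 1 gene symbol in GEO's platform annotation of 2016. The 33.3% of rows with the lowest mean (below 3.41) were left out, leaving 14147 genes. The main test was limma 3.58.1 (R 4.3.3; lmFit, eBayes) with the experiment as a block, two-sided, with Benjamini-Hochberg adjustment. The pairing comes from the series text and the numbered titles; deviations of same-numbered arrays correlated at 0.335. Members and lists were chosen with earlier results of these data known. All members are named. Of other lists, up to 4 genes that passed are named, or the 1 with the largest change. FGB, APOA1, KRT14, LYZ, COL6A3, ALB, TTR, PRKAA1, ABCG8, ABCG1, DGAT1, DGAT2 and AGPAT2 were chosen after seeing values. The alternatives tried were the block, the filter, scaling, row choice, moderation and left-out arrays. The fits were tested on simulated data. The motif search was checked only with GC boxes planted in made-up sequence of A and T, and the other motifs were not planted. Figures were drawn with matplotlib 3.10.9.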

Additional observations from a re-analysis of the deposited data

Results flagged for a closer look

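Opposite signs in the 2 experiments were found for 13 of the 32 tested members, against 30.4% of all genes. These differences were not tested, since each experiment has 1 array per group. Given as experiment 2 minus experiment 1, the difference of the changes was -2.03 for ACSL4, -1.76 for SC5D, -1.20 for MSMO1 and -1.02 for IDI1. It was -0.88 for HMGCS1, -0.84 for SQLE, -0.64 for CYP51A1 and -0.60 for INSIG2. The dim ELOVL6 had -0.36. Differences above 0 were 0.31 for NSDHL, 0.29 for ACAT2, 0.12 for FASN and 0.066 for INSIG1, all with changes under 0.20 in size in both experiments.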

How the results depend on the processing

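Without the block (no replicate block), the members that fell numbered 0 in place of 7, and over all genes 452 rose and 101 fell in place of 1428 and 533. After quantile normalization 896 genes rose, and lower genes made up 36.9% of calls in place of 27.2%; 8 members fell, LSS being the addition. Leaving out single arrays, with no block because none can be fitted to 3 arrays, gave between 0 and 315 genes higher and between 0 and 24 lower, and 0 members lower in each case (between 3 and 10 at an unadjusted p under 0.05). The sterol median was -0.50 in experiment 2 alone and -0.16 in experiment 1 alone, and between -0.49 and -0.24 with 1 array left out. The fatty acid median was -0.42 in experiment 2 alone and -0.092 in experiment 1 alone, and between -0.43 and -0.10 with 1 array left out. Under the scalings the sterol median ran from -0.54 to -0.44 and the fatty acid median from -0.22 to -0.15. Signs turned for NSDHL (-0.063 after quantile normalization, -0.011 after cyclic loess), ACSL4 (-0.040 after quantile normalization) and INSIG1 (0.0026 after cyclic loess). With 1 array left out, signs turned for genes that had not passed: NSDHL (-0.11 and -0.26), ACACA (0.032 and 0.071), ACSL4 (-0.43 and -0.46), ACAT2 (0.029 and 0.18), SQLE (0.059 and 0.042), SC5D (0.21 and 0.39), INSIG1 (0.11 and 0.15), SREBF1 (0.0030), ELOVL6 (0.077), IDI1 (-0.28), LBR (-0.23), SCAP (0.053), FASN (0.058), HMGCS1 (0.33), CYP51A1 (0.047), MSMO1 (0.040), INSIG2 (0.22). The cause was not tested. With 2 arrays per group, p-values rest on the spread among these arrays, pooled in large part over all genes. They do not measure any spread beyond these arrays.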

Other observations

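Several genes of the wider pathway were too dim to test. CYP7A1, which starts bile acid synthesis from cholesterol, read 2.87 and 2.67 in anti-miR-191 cultures of experiments 2 and 1, against 2.82 and 3.21 in controls. MIR33A, a microRNA within an intron of SREBF2 that is known to target ABCA1, read 2.91 and 2.86 in anti-miR-191 cultures, against 3.12 and 2.80 in controls of experiments 2 and 1. Its probe set reads the precursor and not the mature microRNA.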
